A study of Homo sapiens with 5 samples.

Results

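The 10 genes described here are interferon-stimulated genes: IFI44L, IFI44, IFITM1, IFITM2, IFITM3, IFI6, IFI27, IFIT1, ISG15 and BST2. They are 10 of 19775 genes with a probe set named for 1 gene, and 12 of 54675 probe sets were annotated to them. They were picked by name, with their signals over this time course already known, so their values are given as a description and without a test. The cells were IMR32, an established human neuroblastoma line, stably transfected with an inducible short hairpin RNA (shRNA) specific for MEIS1b, and all 5 arrays came from cells that carried it. Total RNA was hybridised to Affymetrix U133 Plus 2.0 arrays. The 0 h array was from cells without doxycycline, and the other 4 were from cells given doxycycline for 24, 48, 96 or 192 h, so every induced time was compared with the same 0 h array. No time point had a replicate, and cells given doxycycline without the hairpin were not among the samples. Whether the cells were 1 clone or a pool was not stated in the labels.

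Interferons are secreted proteins that bind cell surface receptors. The receptors act through JAK kinases to activate a transcription factor complex that includes IRF9, and this complex binds a DNA element called the interferon-stimulated response element (ISRE) in front of its target genes. The target genes include membrane proteins that block virus entry, RNA-binding proteins that block viral translation, and ubiquitin-like modifiers. Many are also transcribed at a low basal level without added interferon.

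The ISRE was looked for because many interferon-induced genes are known to carry it. The genes were chosen by name as interferon-stimulated, so its presence is a description of them and not an independent result. The pattern searched was GAAANNGAAA on both strands (TTTCNNTTTC on the opposite strand), in RefSeq windows of assembly GRCh38.p14 that run from 250 bases before to 50 bases after a transcription start. Windows were found for 9 of the 10 genes, in 11 windows (IFI44 and IFI27 had 2 overlapping ones each), and each of the 11 windows held the pattern, against 3.57% of all 35116 windows. The 46 genes with a window in a list of other interferon-stimulated genes held it in 28 cases (60.9%), against 4.38% of all genes with a window. The matched stretches are shown 5′ to 3′ on the gene's own strand, with the pattern in capitals, for 4 of the 5 genes that read at least 2-fold lower at 192 h than at 0 h, for ISG15, and for IFIT1 as a gene whose signal was near the floor.
IFI44L (chr1:78620244-78620404, plus strand): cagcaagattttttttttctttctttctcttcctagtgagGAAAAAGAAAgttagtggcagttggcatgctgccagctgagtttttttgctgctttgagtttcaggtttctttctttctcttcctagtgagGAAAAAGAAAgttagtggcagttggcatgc
IFI44 (chr1:78649731-78649788, plus strand): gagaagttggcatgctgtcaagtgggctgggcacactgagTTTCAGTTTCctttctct
IFITM1 (chr11:313960-314043, plus strand): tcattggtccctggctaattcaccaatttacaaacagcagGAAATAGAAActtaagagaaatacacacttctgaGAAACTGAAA
IFITM3 (chr11:320866-320952, minus strand): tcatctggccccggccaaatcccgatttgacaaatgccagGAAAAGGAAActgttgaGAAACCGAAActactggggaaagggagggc
ISG15 (chr1:1013344-1013419, plus strand): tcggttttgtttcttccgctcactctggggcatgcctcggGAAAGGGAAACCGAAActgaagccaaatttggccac
IFIT1 (chr10:89392467-89392549, plus strand): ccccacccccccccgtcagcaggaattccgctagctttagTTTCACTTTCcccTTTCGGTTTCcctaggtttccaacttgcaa
The IFI44L window held the same 80 bases in 2 copies that lay 91 bases apart, and the pattern stood once in each copy. The patterns of ISG15 overlapped each other. In IFITM1 the second match ran from position -6 to position 4 relative to the start. A second pattern, TTCNNNGAA (the core of the gamma-activated site, which reads the same on both strands), was found in 4 of the 11 windows, of IFITM1, IFI27 and BST2, against 7.66% of all windows. In each of these genes at least 1 match of it overlapped or touched an ISRE match. The ISRE pattern was present both in genes that read lower at 192 h and in IFI27, IFIT1 and BST2, which were dim throughout. A match describes letters only, and binding was not measured.

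The median MAS5 signal was 16 to 19 per array, and the 3′ to 5′ ratio of GAPDH was 1.02 to 1.08. The poly-A spike-in probe sets differed from 0 h by -0.45, -0.61 and -0.25 on the log2 scale at 48, 96 and 192 h. Of 8 neuroblastoma markers with a probe set, 7 had a mean signal of at least 17.9, among them MYCN at 3957 to 4418; TH read 2.1 to 28.5. Both MEIS1 probe sets, the transcript targeted by the hairpin, stood at 74.5% and 74.9% of their 0 h level at 192 h.

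IFI44L and IFI44 were the members that differed most between the first and the last array. They encode related cytoplasmic proteins with antiviral activity. The MAS5 signals of IFI44L at 0, 24, 48, 96 and 192 h were 613.9, 347, 472.9, 382.2 and 116.2. The 0 h array was the highest and the 192 h array the lowest, and the 3 arrays between them had no steady order. After an offset of 4.7 was added to each signal, the scale used for all ratios here, IFI44L stood at 56.9% of its 0 h level at 24 h and at 19.5% at 192 h, which is 5.12-fold lower. The brighter IFI44 probe set read 1092, 907.6, 1206, 767.6 and 302.9 at 0, 24, 48, 96 and 192 h. The other IFI44 probe set read 399.6, 395.1, 465.7, 329.2 and 132.6. Both IFI44 probe sets were highest at 48 h and lowest at 192 h, where they stood at 28.0% and 34.0% of 0 h. The early dip of IFI44L at 24 h was thus not as deep in IFI44, whose 2 probe sets stood at 83.2% and 98.9% of 0 h at that time.

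The 3 IFITM genes encode small membrane proteins that restrict the entry of enveloped viruses. IFITM3 read 769.6, 720.1, 745.9, 571.7 and 337.5 in the order of the 5 times. IFITM2 read 358.3, 337.1, 325.3, 252 and 143. IFITM1 read 155.6, 117.7, 138.3, 128.9 and 74.6. All 3 genes were lowest at 192 h, at 44.2%, 40.7% and 49.5% of 0 h for IFITM3, IFITM2 and IFITM1. Of the 3, only IFITM2 read lower on each successive array. A further probe set, annotated to both IFITM1 and IFITM2, read 158.4, 141.8, 166.4, 150.6 and 82.3, and stood at 53.3% of 0 h at 192 h. The IFITM genes are close relatives in sequence. The probe sets of IFITM1, IFITM2 and IFITM3, like the shared one, carry manufacturer's marks for probes that may bind more than 1 transcript. Their signals could therefore not be assigned to single genes with certainty. Such marks are also carried by the brighter IFI44 probe set and by that of ISG15. Several pathway genes named below, among them IFI16, RIGI, APOBEC3F and IFNA17, rest on marked probe sets too.

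ISG15 and IFI6 were dimmer and did not share one course. ISG15, a ubiquitin-like protein that is joined to other proteins and also secreted, read 24.7, 20.6, 22.5, 11.5 and 10.4. At 96 and 192 h it stood at 55.1% and 51.4% of 0 h. The mean signal of ISG15, 17.9, was at the limit of the signal filter, and the gene passed only through its signals at 0, 24 and 48 h. A lower level at the late times was therefore implied by its passing, and no weight is put on it. IFI6, a small protein of mitochondria and the endoplasmic reticulum, read 68.8, 70.9, 71.9, 102.7 and 64. IFI6 was highest at 96 h, 1.46-fold above 0 h, and at 192 h it stood at 93.5% of 0 h.

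**Figure D1:**
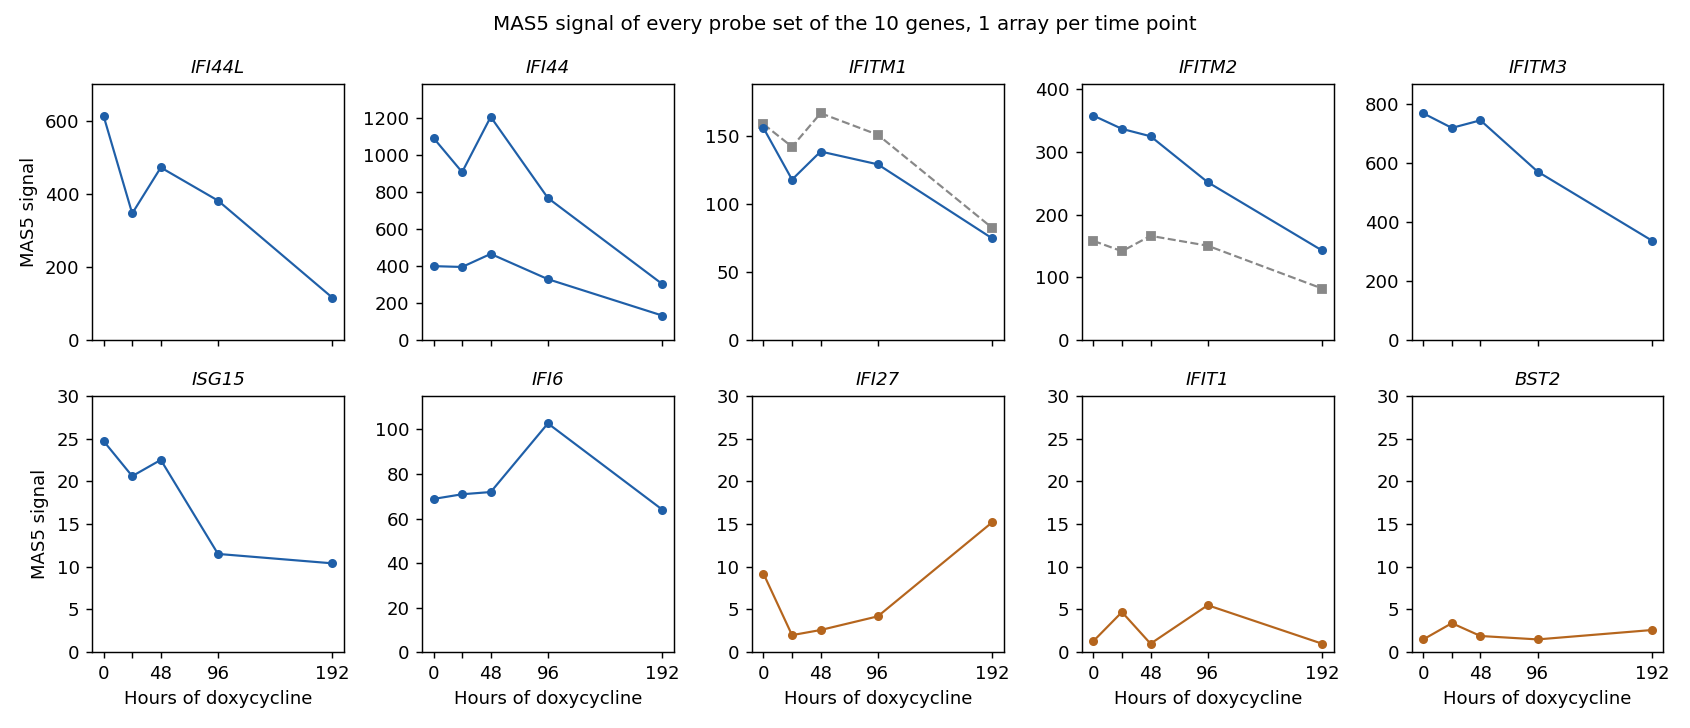
MAS5 signal (y axis, linear from 0, scaled per gene) against hours of doxycycline (x axis) for each of the 12 probe sets of the 10 genes, 1 array per point. Blue circles are probe sets past the signal filter, brown circles those below it, and the grey dashed line with squares is the probe set shared by IFITM1 and IFITM2; IFI44L, IFI44 and the IFITM genes are lowest at 192 h, while IFI27, IFIT1 and BST2 stay below 16.

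The remaining 3 members were near the floor of the measurement, and their folds are not given. IFI27, a small mitochondrial protein, read 9.2, 2, 2.6, 4.2 and 15.2. IFIT1, which binds viral RNA that lacks a host-type cap, read 1.3, 4.7, 1, 5.5 and 1, and BST2 (tetherin), which holds budding virus at the cell surface, read 1.5, 3.4, 1.9, 1.5 and 2.6. Over all 5 arrays IFIT1 and BST2 stayed at or under 5.5, and signals this low have no dependable order in MAS5 data. These 3 genes did not pass the filter of a mean signal of 17.9, so the counts below cover 7 of the 10 genes.

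The step from 96 h to 192 h held the largest difference between successive arrays for 6 of the 7 genes. On the log2 scale it was -1.68 for IFI44L, -1.33 for IFI44, -0.80 for IFITM2, -0.75 for both IFITM1 and IFITM3, and -0.64 for IFI6. For IFI6 it followed a difference of 0.49 in the other direction from 48 to 96 h. ISG15 was the exception, with -0.75 from 48 h to 96 h and -0.10 in the last step. Of the 7 genes, 6 read at least 1.5-fold lower at 192 h than at 96 h, where 4.37% of the 11943 genes tested did so, and 2 of 7 at least 2-fold lower, where 1.09% did so. All 7 were lowest at 192 h, as were 23.7% of all genes tested, but ISG15, which carries no weight, is among the 7. Since the genes were picked with these values known, nothing is read from these shares.

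Against 0 h, 0 of 7 members were at least 2-fold lower at 24, 48 or 96 h, where 0.938%, 0.653% and 1.17% of all genes tested were, and 0 of 7 were at least 2-fold higher, where 0.678%, 1.08% and 2.19% were. At 192 h, 5 of 7 were at least 2-fold lower (IFI44L, IFI44, IFITM1, IFITM2 and IFITM3) and 0 were 2-fold higher, where 1.93% and 2.29% of all genes tested were. The median log2 ratio to 0 h of the 7 genes was -0.22, -0.11, -0.50 and -1.18 at 24, 48, 96 and 192 h. At 24 and 48 h this median is the value of ISG15, on which no weight is put. For IFI44L, IFI44, IFITM1, IFITM2 and IFITM3, a set that leaves out IFI6 as well, it was -0.27, -0.14, -0.50 and -1.30. Over all genes tested the median log2 ratio was between -0.01 and 0.02 at each time. Because RNA was taken from whole cultures, fewer cells with these transcripts and less of the transcripts per cell cannot be told apart. The members left the range of the other genes at different times. IFI44L was below the 5th percentile of all genes at 24, 96 and 192 h, and IFI44 and the 3 IFITM genes only at 192 h. ISG15 is left out of this statement because of the way it passed the filter.

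**Figure D2:**
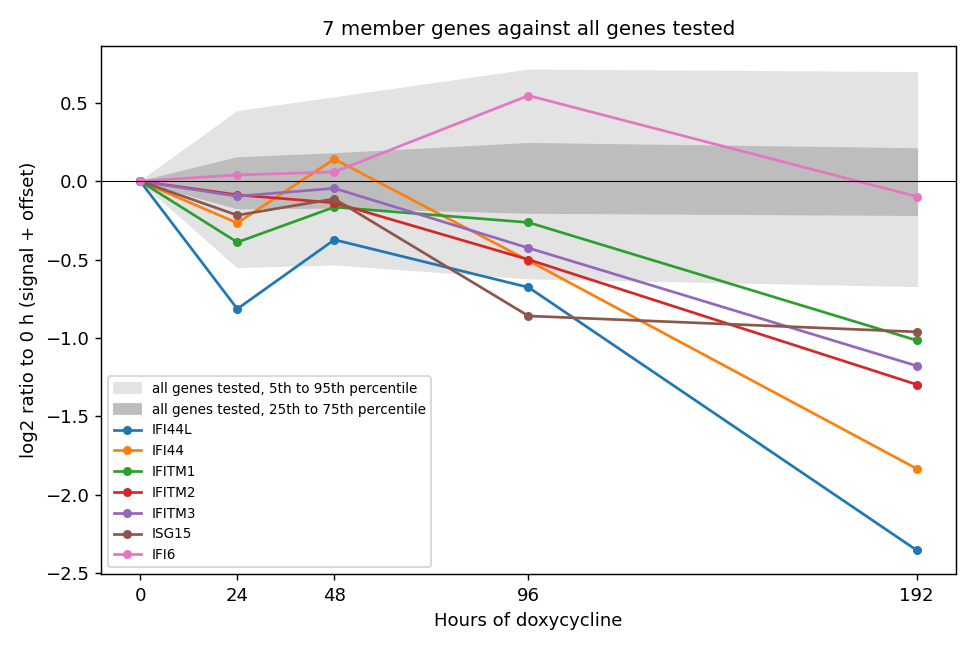
Log2 ratio to the 0 h array on the log2(signal + 4.7) scale (y axis) against hours of doxycycline (x axis) for the 7 members past the signal filter, each by its brightest probe set, with 1 array per point. The dark and light grey bands span the 25th to 75th and the 5th to 95th percentile of the 11943 genes tested; at 192 h IFI44L, IFI44 and the 3 IFITM genes lie below the light band.

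A straight line fitted over the 5 arrays, with time coded as steps 0 to 4, gave a fitted log2 change over the course of -1.83 ± 0.42 (SE) for IFI44L, -1.56 ± 0.38 for IFI44, -1.20 ± 0.23 for IFITM2, -1.08 ± 0.22 for IFITM3, -1.03 ± 0.47 for ISG15, -0.76 ± 0.26 for IFITM1 and 0.12 ± 0.29 for IFI6. The fit was limma's, over 11943 genes. Its SE mixes a gene's own scatter about the line (3 residual degrees of freedom) with that of genes of like brightness (9.07 prior degrees of freedom). The SE is thus not a gene's own scatter: the residual SD was 0.62 for IFI44L, 0.57 for IFI44 and 0.22 for ISG15. The fit had an adjusted p under 0.05 for 3.49% of all genes tested. The members were chosen on this same trend, so no p is given for them. The fitted changes rested on the 192 h array: without it the fitted change was -0.64 for IFI44L, -0.44 for IFI44, -0.62 for IFITM2, -0.49 for IFITM3 and -0.23 for IFITM1, while ISG15 kept -0.99. IFI6 had 0.66 without the 192 h array. With the level of the poly-A spike-ins as a covariate the changes were larger, at -2.95 for IFI44L, -2.47 for IFI44 and -1.28 for IFITM1, and that of IFI6 was -0.25.

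The courses of the brighter members were alike in shape. Over the 5 arrays Pearson's r of log2 signal with IFI44L was 0.998 for IFITM1, 0.965 for IFI44, 0.949 for IFITM3, 0.940 for IFITM2, 0.776 for ISG15 and 0.295 for IFI6. IFITM2 and IFITM3 had an r of 0.997 with each other, but their probe sets may bind more than 1 transcript. The points are the same 5 arrays in each case, and the low 192 h array weighs heavily in each r. Outside the list, 1227 genes with a log2 range of at least 1 were compared with IFI44L in the same way. The 5 with the highest r were RGMA (0.995), LOC102546299 (0.994), DRAXIN (0.989), LINC00636 (0.989) and LBH (0.985). RGMA, a repulsive guidance molecule, read 124.2, 95.9, 108.7, 92.2 and 51.8. DRAXIN, a secreted axon guidance protein, read 462.4, 329.6, 374.6, 342.7 and 213.4. Both shared with IFI44L the dip at 24 h, the partial return at 48 h and the lowest level at 192 h. Since they were picked for a high r, this likeness follows from the choice. Neither gene was on the lists of interferon pathway genes used here.

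Of the 10 members 5 lie in 2 groups on their chromosomes, and the neighbours of these groups were compared for that reason. By RefSeq order, IFI44L and IFI44 are adjacent protein-coding genes on chromosome 1, and IFITM2, IFITM1 and IFITM3 follow each other on chromosome 11. Of the 3 protein-coding genes on either side of each group, 7 passed the signal filter, a choice of genes made after the members' values were seen. On chromosome 1, DNAJB4 had a log2 ratio of 0.003 at 192 h over 0 h, PTGFR -0.26 and ADGRL2 -0.45, against -2.36 and -1.84 for IFI44L and IFI44. On chromosome 11 the ratio was -0.46 for PGGHG, 0.21 for B4GALNT4, 0.40 for PKP3 and -0.60 for SIGIRR, against -1.02 to -1.30 for the IFITM genes. Of the 7 neighbours 0 were 2-fold lower at 192 h, where 1.93% of all genes tested were. In the limma trend 0 of 7 passed an adjusted p of 0.05, where 3.49% of all genes tested did. Both counts were near these shares, so nothing is read from them. SIGIRR, which read 314.2 at 0 h and 206.4 at 192 h, was also lowest at 192 h.

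**Figure D3:**
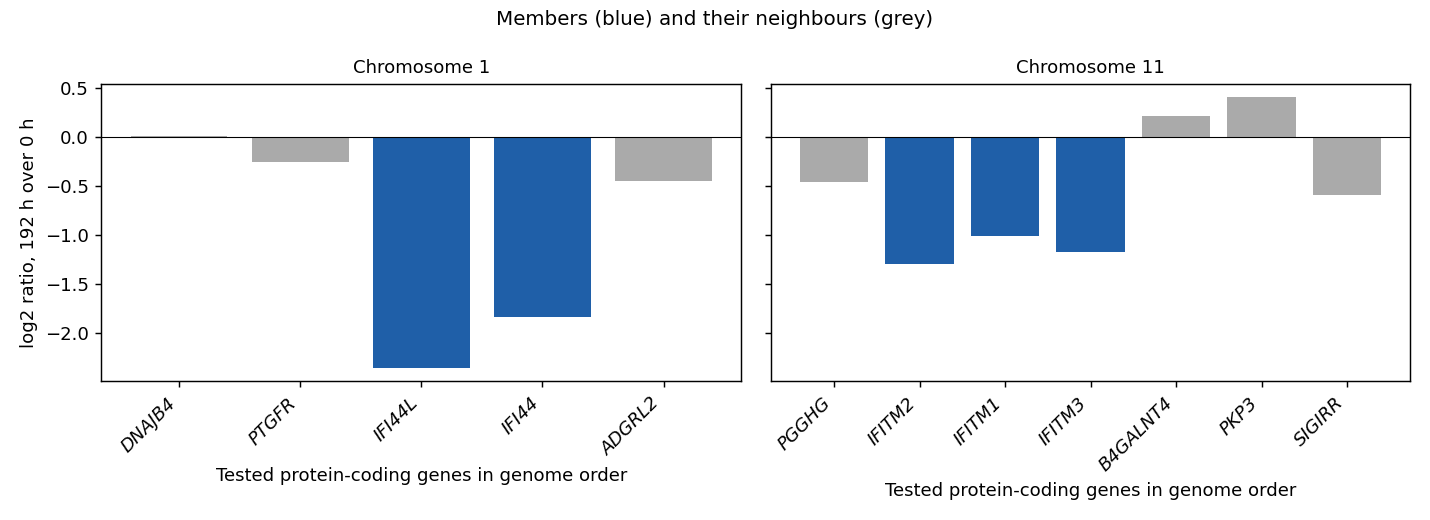
Log2 ratio of 192 h over 0 h on the log2(signal + 4.7) scale (y axis, bars from 0) for tested protein-coding genes in genome order (x axis, not to distance) around the 2 groups of members, 1 array per time. Members are blue and neighbours grey; the 5 blue bars reach below -1 and the grey bars stay above -0.6.

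The rest of the interferon pathway was taken from lists of 134 genes ordered by role, of which 121 had a probe set named for them alone and 56 passed the signal filter. In the limma trend 0 of the 56 passed an adjusted p of 0.05 in either direction, where 3.49% of all genes tested did, and 7 had an unadjusted p under 0.05, as did 2028 of all 11943 genes tested. Their median fitted log2 change was 0.05, against 0.003 over all genes tested. With 5 arrays the lack of a call does not show that these genes did not change.

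**Figure D4:**
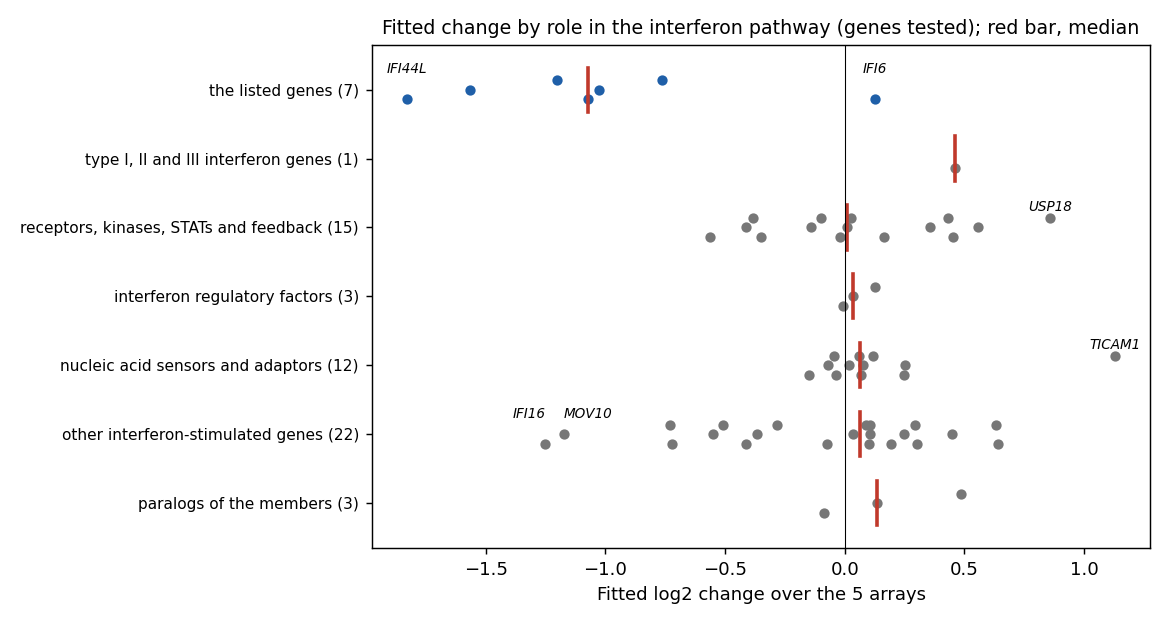
Fitted log2 change over the 5 arrays (x axis) of each tested gene, 1 point per gene, by role in the pathway (y axis, number tested in brackets), with the median of each group as a red bar. The listed genes (blue, ISG15 among them) have a median of -1.08, and the medians of the other groups (grey) lie between 0.009 and 0.46, the last from a single gene.

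The ligands were dim. Of 18 interferon genes with a probe set, 17 did not pass the filter, and the exception, IFNA17, read 25.9, 4.6, 27, 13.5 and 27.9 with no steady order. The interferon beta gene IFNB1 read 4.4 at 0 h and 1 at 24 and 48 h. Of 16 receptor and signalling genes with a probe set 15 passed the filter, and 0 of these 15 passed the trend. The type I receptor genes IFNAR1 and IFNAR2 had fitted log2 changes of 0.43 ± 0.34 (SE) and 0.45 ± 0.30, and the kinase gene JAK1 had -0.10 ± 0.14. USP18, which trims ISG15 from proteins and dampens receptor signalling, read 301.7, 263.2, 225.9, 643.8 and 409.9; its fitted change of 0.86 ± 0.38 had a limma adjusted p of 0.275. USP18 was highest at 96 h and, like the 7 members past the signal filter, lower at 192 h than at 96 h. Its fitted change was 0.47 when the 96 h array was left out, 1.35 when the 0 h array was, and 0.57 with the poly-A covariate.

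Among interferon regulatory factors 0 of 3 passed. IRF9, the DNA-binding part of the complex, read 55.7, 63, 58, 73.7 and 57.9, and its fitted log2 change was 0.13 ± 0.27 (adjusted p = 0.886 in limma). IRF7, a factor that amplifies interferon production, did not pass the signal filter and read 18.2, 15.7, 12.4, 12.4 and 2.1. The nucleic acid sensors and adaptors had 0 of 12 past the threshold and a median of 0.06. EIF2AK2 (PKR), a kinase activated by double-stranded RNA, read 479.9, 571.9, 534, 428.3 and 532.7, and ADAR, an RNA editing enzyme, stayed between 2054 and 2323. RIGI, a sensor of viral RNA, read 34.2 at 0 h and 36.2 at 192 h, and TICAM1, the adaptor of TLR3, read 19.2 at 0 h and 41.5 at 192 h (1.13 ± 0.37, adjusted p = 0.132).

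Of 60 other interferon-stimulated genes 56 had a probe set, 34 of these were too dim to test, and 0 of the 22 tested passed, with a median fitted log2 change of 0.06. MX1, OAS1 and IFIT3, classical interferon targets, were among the dim ones. MX1 read 3, 3.1, 3.3, 2.5 and 7.7, OAS1 read 7.2, 4, 13.4, 4.4 and 4.8, and IFIT3 read 4, 13.9, 14.5, 31 and 12.1, none with a steady order. The lowest fitted changes were those of IFI16, MOV10 and PARP9. IFI16, a nuclear DNA sensor, read 97, 136.1, 145.1, 93.9 and 36.4, a fitted change of -1.25 ± 0.46 (SE) with a limma adjusted p of 0.181. It was the only one of the 22 that was 2-fold lower at 192 h than at 0 h, and like IFI44 it was highest at 48 h and lowest at 192 h. Its value depended on single arrays and on the setting: without the 0 h array it was -2.37 (adjusted p = 0.0345), with the poly-A covariate -1.96 (0.0872), with array medians set equal -1.36 (0.0189), on a scale of hours -1.62 (0.0357), and without the 192 h array -0.02. MOV10, an RNA helicase, had -1.17 ± 0.43 (adjusted p = 0.186). Its value was -2.19 (0.0334) when the 192 h array was left out, -0.77 when the 96 h array was, and -0.53 with the poly-A covariate. PARP9 had -0.73 ± 0.40 (0.385), and -0.36 as the mean of its probe sets. The highest were LGALS3BP, a secreted glycoprotein (0.64 ± 0.19, adjusted p = 0.0873), OASL (0.63 ± 0.41, 0.49) and APOBEC3F (0.45 ± 0.47, 0.713). Without the 192 h array these were 1.08 (0.0143) for LGALS3BP, 1.21 for OASL and -0.08 for APOBEC3F. With the poly-A covariate they were 0.28, 0.25 and 1.05, and without the 0 h array OASL had 0.35. Of the 22 genes 5 were lowest at 192 h and 5 were highest there, as were 2828 and 2389 of all 11943 genes tested, so both counts were near the background. Among paralogs of the members, IFI27L1, IFI27L2 and the ubiquitin gene UBB were tested and 0 of 3 passed.

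Markers of other cell types were set beside the members' course. The summed signal of 6 blood and immune markers was 17.1 to 66.9 per array, with no single value above 25.9, and that of 4 endothelial markers was 34.9 to 73.3. The summed signal of 4 fibroblast markers was 497.1, 420.8, 341.5, 203.7 and 160.9 over the 5 times, so it was lower at the late times, as the members were. That sum was mostly PDGFRA, which read 457.3 at 0 h and 131.6 at 192 h and was the 1 marker of the 4 that fell in the limma trend (-1.85), while LUM and DCN stayed at or under 19 and COL3A1 at or under 33.3. Whether any other cell type was present, or had a part in the members' course, was not tested.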

How the data were processed

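Total RNA of 5 IMR32 cultures, 1 per time point, was measured on Affymetrix U133 Plus 2.0 arrays. The authors' deposited values are log2 of the MAS5 signal; per the submitters' processing notes MAS5 and GCOS were used, versions not given. The log step and the floor at a signal of 1 were read from the values. MAS5 subtracts a mismatch-based background and scales each array by 1 factor, so low signals are noisy.

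Signals were made linear, 4.7 was added (the arrays' median 25th percentile) and log2 was taken. Control probe sets (62) did not enter the fit. Of 41091 probe sets named for 1 gene, those whose mean signal reached 17.9, the overall median, were retained, and each gene was represented by its brightest, which left 11943 genes. The trend over time steps was fitted with limma 3.58.1 under R 4.3.3 (lmFit, eBayes with trend=TRUE) and tested on simulated data. Two-sided p-values were adjusted by Benjamini and Hochberg's method across all genes, with a threshold of 0.05. With 1 array per time point nothing measures the spread between cultures.

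The members and all lists were chosen with earlier results of these data known. Named genes were the members, pathway genes past the threshold, a few set pathway genes, the 3 largest changes in each direction among other interferon-stimulated genes, and the 5 genes most like IFI44L; further receptors, sensors and neighbours were named after their values were seen. Promoter windows came from RefSeq, assembly GRCh38.p14; the arrays' values name no build. Alternatives changed the offset, filter, scaling, time scale, covariate or probe set rule, or left out an array.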

Additional observations from a re-analysis of the deposited data

How the results depend on the processing

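The fitted change of IFI44L, IFI44, IFITM1, IFITM2, IFITM3 and ISG15 was below 0 in 83 of 83 alternative values, and that of IFI6 lay between -0.25 and 0.66. The members were chosen on this same trend over the same arrays, so the tally is a description and no support. No weight is put on the ISG15 values in it, because of the way that gene passed the filter. Without the 192 h array the change ranged only from -0.64 for IFI44L to -0.23 for IFITM1, ISG15 left aside. ISG15 could not be fitted under the higher filter. The median log2 ratio of the members at 192 h over 0 h was -0.99 to -1.24 under the other offsets, filters, scalings and probe set rule (-0.99 without a filter, where all 10 genes enter). That median includes ISG15 except under the higher filter. Over all genes 241 were higher and 176 lower in the trend. Without a signal filter the counts were 16 and 5, and with the poly-A covariate 118 and 112; leaving out each array in turn gave 121 to 249 higher and 69 to 167 lower. With array medians set equal, 43.4% of the calls were higher against 57.8% here, and the median fitted change of all genes was -0.11 in place of 0.003. Of the other interferon pathway genes 0 passed here; 1 lower gene, IFI16, passed with array medians set equal and 1, again IFI16, on a scale of hours, and leaving out each array gave 0 to 1 higher and 0 to 1 lower. The sign turned for APOBEC3F without the 192 h array (-0.0838, to 0.632 without the 0 h array) and for IRF9 with the poly-A covariate (-0.00459) and without the 0 h array (-0.00664, to 0.407 without the 192 h array); the cause was not tested. Signal over background limits IFI27, IFIT1 and BST2. No paired analysis was possible because each time point has 1 array.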
